A study of Mus musculus with 4 samples.

Results

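The genes described here encode the proteins of the cytosolic ribosome. They were taken as all genes whose symbol is Rpl or Rps followed by a number, with an optional letter a, x, y or l and further digits, and Rpsa, Rplp0, Rplp1 and Rplp2. A gene counted only where a probe set of the array is annotated to that gene alone, and it was represented by its brightest such probe set over the 4 arrays. This gave 49 genes, 26 of the large and 23 of the small subunit, of 18193 genes in all, from 105 probe sets. RefSeq (GRCm38.p6) lists 84 protein-coding genes whose symbols meet the same rule. Of these, 48 were measured, 28 were named on the array by probe sets that list several genes, and 8 by none; these 36 genes, Rplp1, Rps27a, Rpl5, Rpl23 and Rpl10 among them, were not analysed here. The remaining member, Rps4l, is a transcribed pseudogene in RefSeq. No symbol changed when it was updated through its gene ID.

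RNA of 4 samples was hybridised to Affymetrix mouse arrays, 1 array for each. The parental sample was an induced pluripotent stem cell (iPSC) clone, Adeno-1, which adenoviral vectors had reprogrammed from tail-tip fibroblasts. The other 3 arrays held embryonic stem cell (ESC) lines, NT-1, NT-2 and NT-3, derived from cloned blastocysts after nuclear transfer (NT) from that clone, and are called NT-ESC lines 1, 2 and 3 below. All 4 samples grew with LIF and 15% serum on irradiated mouse embryonic fibroblasts and were replated for 45 minutes to take the fibroblasts away. The labels give no age, sex or strain, and call the lines subclones without saying whether each came from its own blastocyst, so p-values measure the spread between these arrays, which may be technical.

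A ribosome joins a small subunit, which reads the mRNA, to a large subunit, which forms the peptide bonds. Each subunit holds ribosomal RNA and a fixed set of proteins needed in fixed proportions, and their mRNAs are among the most abundant of a growing cell. Ribosomal protein mRNAs of mammals start with a stretch of pyrimidines, the 5′ terminal oligopyrimidine tract, through which mTOR signalling controls their translation. Mouse genomes also hold many processed pseudogenes of these genes, and array probes for them can match several loci.

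The start sites are shown first, because the pyrimidine stretch is the sequence feature the family is known by. RefSeq promoters (GRCm38.p6, 250 bases before to 50 after a start) matched 43 of the 49 genes with 51 start sites; Rpl7, Rpl8, Rps14, Rps20, Rps29 and Rps4l had no entry. Each line gives the 40 bases before and the 20 bases from the start site on, 5′ to 3′ on the gene's strand. Capitals mark the longest run of C and T that lies within 20 bases on either side of the start. The first 5 genes carry runs of 10 or more pyrimidines; Rps27 and its paralog Rps27l, and Rpl39l, are shown because their levels and differences are described below.
Rps6, chr4:86857348-86857407, minus strand: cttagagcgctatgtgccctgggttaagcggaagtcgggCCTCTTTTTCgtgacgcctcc
Rpl35, chr2:39005112-39005171, minus strand: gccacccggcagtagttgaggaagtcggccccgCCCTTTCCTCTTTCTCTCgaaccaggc
Rps10, chr17:27635225-27635284, minus strand: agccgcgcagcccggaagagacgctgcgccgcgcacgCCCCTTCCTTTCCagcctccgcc
Rps18, chr17:33955646-33955705, minus strand: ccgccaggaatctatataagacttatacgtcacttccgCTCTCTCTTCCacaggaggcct
Rpl14, chr9:120571477-120571536, plus strand: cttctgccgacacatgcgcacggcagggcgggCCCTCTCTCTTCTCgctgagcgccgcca
Rps27, chr3:90213629-90213688, minus strand: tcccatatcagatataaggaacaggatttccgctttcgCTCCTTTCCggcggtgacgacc
Rps27l, the upstream of its 2 starts, chr9:66946046-66946105, plus strand: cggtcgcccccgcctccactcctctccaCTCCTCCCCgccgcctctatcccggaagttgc
Rpl39l, chr16:10170188-10170247, plus strand: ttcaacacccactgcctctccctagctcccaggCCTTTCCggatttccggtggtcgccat

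Over the 51 start sites of the ribosomal protein genes the median longest run was 7 pyrimidines, against 5 over all 32851 start sites of the table. A run of 8 or more lay at 20 of them (39.2%), against 16.05% of all. CTCTTT, read on the gene's strand in the same window, was found at 4 (7.84%), against 1.54% of all. Other letters were searched on both strands of the whole 300 bases. CCGGAAG, the core bound by ETS factors such as GABPA, was found at 21 (41.2%), against 8.86% of all, and TCTCGCGA at 10 (19.6%), against 0.995%. TATAAA, between 40 and 15 bases before the start on the gene's strand, was found at 1 (1.96%), that of Rpl22l1, against 1.99% of all. The median GC content was 57.7%, against 52.7%. Several genes have more than 1 start site that share sequence, and a match describes letters, not binding.

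The cells carried the RNA their labels name. All 10 pluripotency markers (Pou5f1, Sox2, Nanog, Zfp42, Esrrb, Dppa5a, Utf1, Lin28a, Sall4 and Tdgf1) stood at mean levels from 11.20 to 13.66. Levels here are log2 intensities on a scale whose mean per array is taken as 7. Of 12 measured fibroblast and feeder markers 11 lay at or above 6.83, the median of all probe sets, with Col1a2 brightest at 10.80 in the clone and 10.81, 11.11 and 10.83 in lines 1, 2 and 3. Their summed level was 100.8 in the clone and 101.0, 102.6 and 100.2 in the lines. Fewer cells of a type and less RNA per cell cannot be told apart in such samples. The gap between the 3′ and 5′ control probe sets of Actb was 0.218 in the clone and 0.276, 0.421 and 0.293 in the lines.

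Ribosomal protein genes filled the top of the signal range. They made up 6 of the 10 brightest genes, 15 of the 20 brightest and 34 of the 100 brightest. The median member outshone 99.8% of all genes. A total of 34 members lay at level 13 or above, where 73 genes lay in all, 3 between 12 and 13, and 12 lower. These are ranks of signal: probe sets differ in affinity, so they are not an order of mRNA copies, and the brightest probe set of the array stood at 14.24. The plot of levels by gene shows the plateau of bright members and the tail of 12.

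**Figure D1:**
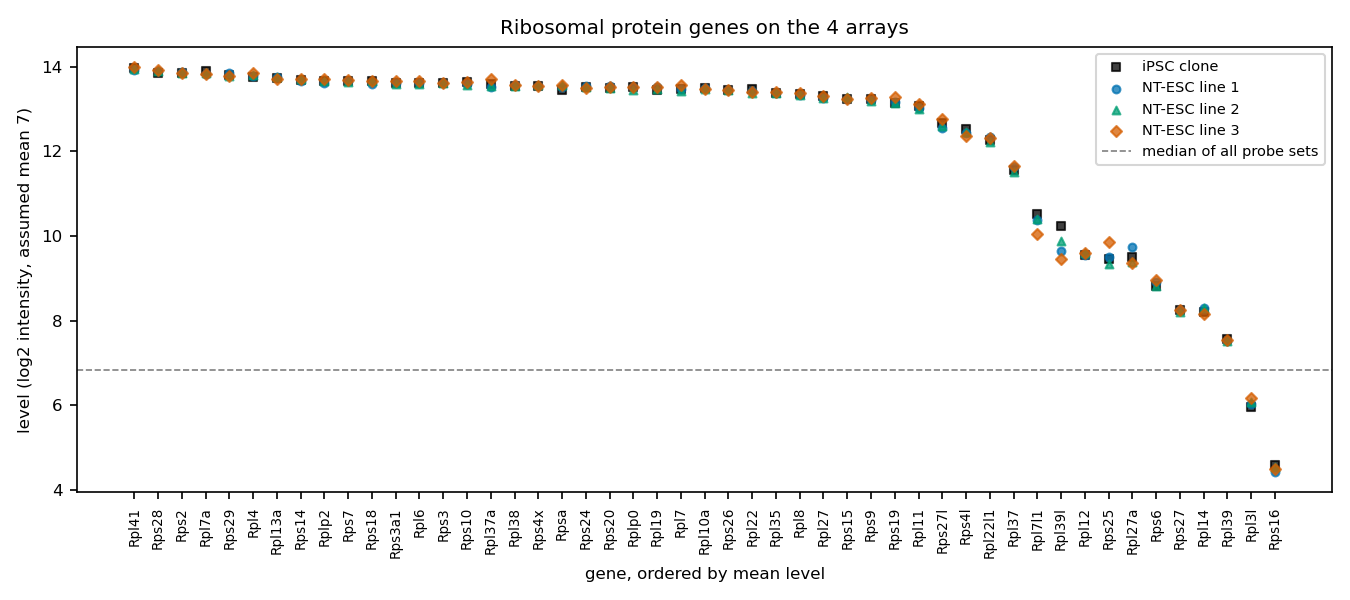
Level of each of the 49 ribosomal protein genes (x axis, ordered by mean level) on the 4 arrays (y axis, log2 intensity, assumed mean 7); each marker is 1 array and the dashed line is the median of all probe sets, 6.83. The 4 arrays overlap for most genes, 34 genes lie at level 13 or above, and Rpl3l and Rps16 lie below the line.

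Rpl41, whose product is a very short basic peptide of the large subunit, was the brightest member, at 13.98 in the clone and 13.92, 13.94 and 13.99 in lines 1, 2 and 3. It ranked second of all genes. Rps28, a small subunit protein near the mRNA exit, stood at 13.86, 13.89, 13.89 and 13.93 in the same order. Rps2, which lies at the mRNA entry, stood at 13.86, 13.87, 13.85 and 13.85. In all 3 genes the arrays lay within 0.07 of each other, and the clone fell inside the range of the lines for Rpl41 and Rps2. Next came Rpl7a, Rps29, Rpl4, Rpl13a and Rps14, with mean levels from 13.85 down to 13.69; Rpl4 lines the exit tunnel and Rpl13a also takes part in translational silencing in inflammation.

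The stalk of the large subunit, which recruits elongation factors, was measured for 2 of its 3 proteins. Rplp0 stood at 13.51, 13.51, 13.46 and 13.51 in the clone and lines 1, 2 and 3, and Rplp2 at 13.67, 13.63, 13.67 and 13.72. Rpl11, one of the ribosomal proteins that bind Mdm2 and so stabilise p53 when ribosome assembly fails, stood at 13.08, 13.03, 13.01 and 13.12. Rps19, the gene most often mutated in Diamond-Blackfan anaemia, stood at 13.15, 13.17, 13.14 and 13.28, with line 3 above the other arrays. Rpl38, needed for the translation of Hox mRNAs in mouse embryos, stood at 13.55, 13.57, 13.55 and 13.56. Fau, which the rule does not cover and which encodes a small subunit protein fused to a ubiquitin-like domain, stood at 13.36, 13.35, 13.36 and 13.34. The 18 large subunit members at or above 12 had a median of 13.50 and the 19 small subunit members 13.55.

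Most dim members were genes of the core ribosome. The 12 members under level 12 were Rpl37, Rpl7l1, Rpl39l, Rpl12, Rps25, Rpl27a, Rps6, Rps27, Rpl14, Rpl39, Rpl3l and Rps16, of which 10 lay under level 10. Rps16, a core small subunit protein, was the lowest, at 4.58 in the clone and 4.42, 4.54 and 4.49 in the lines, and only Rps16 and Rpl3l lay under the median of all probe sets. Rps6, the substrate of S6 kinases, stood at 8.82, 8.92, 8.81 and 8.96, and Rps27 at 8.25, 8.26, 8.21 and 8.25. Rpl39, an X-linked exit tunnel protein, stood at 7.56, 7.51, 7.52 and 7.54, while Rps4x, the other X-linked member, stood at 13.54, 13.54, 13.56 and 13.55. Of the 10 members under level 10, 8 are also listed by probe sets that name several genes, and for these 8 the brightest such probe set stood between 13.10 and 13.98. The 2 without one were Rpl39l and Rpl3l. The value of a dim core gene is thus that of its brightest unshared probe set, and 11 of the 12 members under level 12 were represented by probe sets with the plain suffix _at, which in Affymetrix naming marks probes unique to 1 transcript.

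Probe sets of the same gene spread widely. Of the 24 members with several single-gene probe sets, 12 spanned more than 4 log2 and 7 less than 1. The widest was Rpsa, a small subunit protein also known as the laminin receptor, whose probe sets had mean levels of 13.53 and 4.73. Rps4x spanned 13.55 to 6.13 and Rps18, over 6 probe sets, 13.64 to 6.40. The narrowest was Rps28, whose 3 probe sets lay within 0.01. Among the members' representatives 14 carried the suffix _x_at, which marks probes that can match other transcripts, and 13 of these lay at or above 12.

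Paralogs were measured beside their parent gene for 5 pairs (Rpl7 and Rpl7l1, Rpl22 and Rpl22l1, Rpl39 and Rpl39l, Rps27 and Rps27l, Rps4x and Rps4l). Rps27l, a p53 target, stood at 12.66 in the clone and 12.56, 12.60 and 12.77 in lines 1, 2 and 3. Rpl22l1, which can replace Rpl22 in the ribosome, stood at 12.28, 12.35, 12.21 and 12.32, and Rpl22 at 13.47, 13.42, 13.38 and 13.40. Rps4l stood at 12.52, 12.44, 12.47 and 12.37, with the clone above every line; whether its probes also match its parent gene Rps4x was not tested. Rpl7l1, a relative of Rpl7 that acts in ribosome assembly, stood at 10.53, 10.37, 10.40 and 10.04. Rpl39l, a paralog best known from the male germ line, stood at 10.23, 9.65, 9.87 and 9.46. Both were highest in the clone and lowest in line 3. Rpl3l, the heart and skeletal muscle paralog of Rpl3, stood at 5.96, 6.03, 6.07 and 6.17, under the median of all probe sets on every array.

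Bright ribosomal protein genes varied little between the arrays. The range from the lowest to the highest array had a median of 0.0672 log2 over the 49 members, against 0.185 over all genes. For the 12 members under level 12 it was 0.155, nearer that of all genes. Among genes at or above level 12 it was 0.0571 for the 37 members and 0.134 for the 232 others. These sets had median levels of 13.53 and 12.38, so they were not matched in level. The deposited values are given in steps of 0.001, worth 0.00935 log2 at 13.48, the median level of the members, and a compressed scale near the top of the signal was not tested as a source of the narrow range. Rps26 had the narrowest range, 0.0093, a single step. The 6 widest were Rpl39l at 0.764, Rps25 at 0.506, Rpl7l1 at 0.485, Rpl27a at 0.384, Rps27l at 0.211 and Rpl3l at 0.210.

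**Figure D2:**
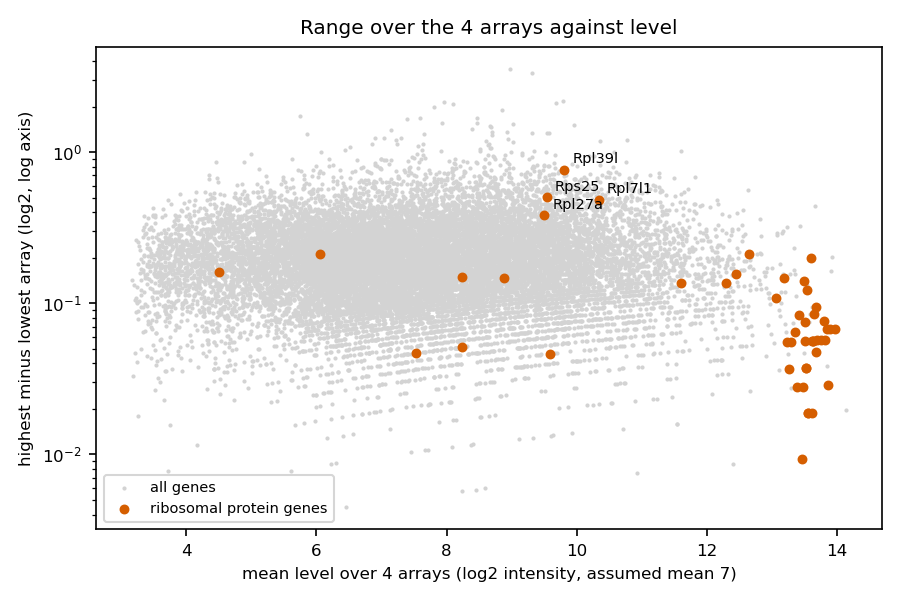
Highest minus lowest array (y axis, log2 difference on a log axis) against mean level over the 4 arrays (x axis, log2 intensity with an assumed mean of 7) for all genes in grey and the 49 ribosomal protein genes in orange. Most bright members lie at the lower edge of the cloud, and Rpl39l, Rps25, Rpl7l1 and Rpl27a, all under level 12, have the widest ranges.

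Against the clone, the NT-ESC lines showed no difference in ribosomal protein genes that passed the test. The median log2 difference of the 49 members, lines minus clone, was 0.00, against -0.0031 over all genes, with 27 members higher and 22 lower. By limma's moderated test over all genes (two-sided, Benjamini-Hochberg adjusted p under 0.05) 0 members and 0.0% of all genes were called; the smallest adjusted p of a member was 0.856. At an unadjusted p under 0.05, 1 member passed, 2.04% against 5.53% of all genes. All 3 lines lay above the clone for 5 members (10.2%, against 24.7% of all genes) and below it for 7 (14.3%, against 26.7%). After quantile normalization these counts were 3 and 15. The shares of all genes after that scaling are not given, here or for lines 2 and 3 below. Equal values count on neither side, as for Rps26 and Rpl10a, where the clone equalled 1 line. Deposited values come in steps and many members have narrow ranges, so ties can lower the members' shares. How much of the gap to all genes comes from ties was not tested.

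Rpl39l was the member that passed without adjustment. Its level of 10.23 in the clone compared with a line mean of 9.66 ± 0.20 (SD, n = 3), a difference of -0.57 ± 0.16 (SE), and the groups did not overlap (limma, unadjusted p = 0.0139, Benjamini-Hochberg adjusted p = 0.856). Rpl7l1 differed by -0.26 ± 0.16 (SE), Rps16 by -0.10 ± 0.09, Rps4l by -0.10 ± 0.08, Rpl22 by -0.07 ± 0.08 and Rpl7a by -0.06 ± 0.08. Each of these was below the clone in all 3 lines. Upward, Rpl3l differed by 0.13 ± 0.09 (SE), Rps25 by 0.11 ± 0.19, Rpsa by 0.10 ± 0.08, Rps6 by 0.07 ± 0.09, Rpl19 by 0.05 ± 0.08 and Rpl37 by 0.05 ± 0.09. Of these, Rpl3l, Rpsa and Rpl19 were above the clone in all 3 lines. None of these 11 differences passed at an unadjusted p under 0.05. Without line 3 that of Rpl7l1 was -0.14 and that of Rps25 turned to -0.03; without line 2 that of Rps25 was 0.22.

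**Figure D3:**
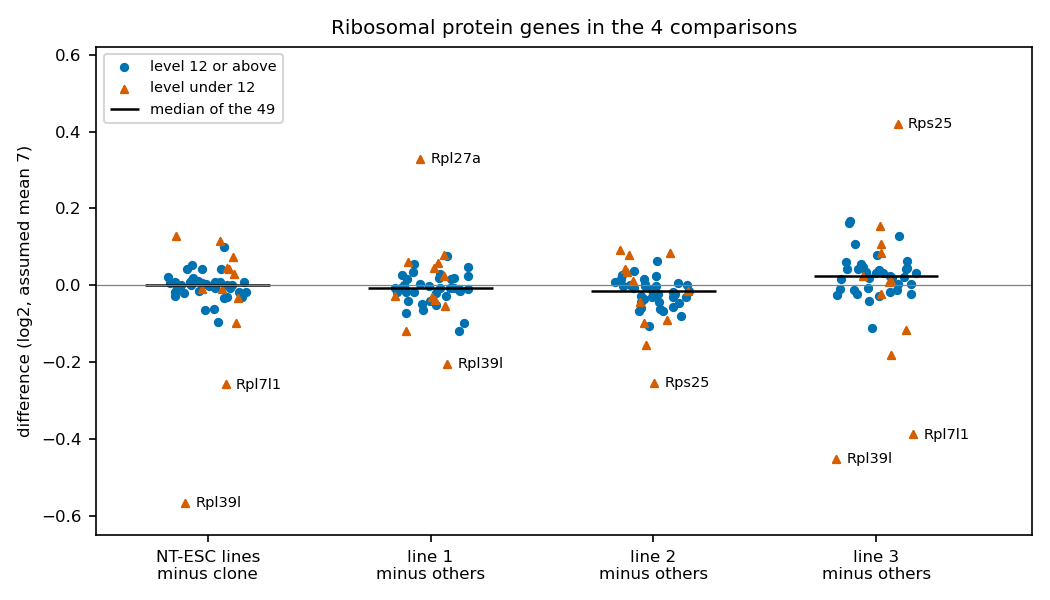
Difference of each of the 49 ribosomal protein genes (y axis, log2 with an assumed mean of 7) in the 4 comparisons (x axis); each point is 1 gene, blue circles have a mean level of 12 or above, orange triangles a lower one, and the black bar is the median. Medians lie between -0.0157 and 0.0243, and genes named in the plot differ by more than 0.2.

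NT-ESC line 3 was set against the other 3 arrays, with the spread taken from those 3 arrays. Here limma called 0 members, against 0.462% of all genes, and 2 members passed at an unadjusted p under 0.05 (4.08%, against 11.6%). Line 3 was the highest array for 20 members (40.8%, against 25.7% of all genes) and the lowest for 7 (14.3%, against 28.8%), with a median log2 difference of 0.0243, against -0.0059 over all genes. This direction turned with the scaling: after quantile normalization line 3 was highest for 11 members and lowest for 19, and the median was -0.00041. Among the 30 single-gene probe sets at or above level 12 that did not represent a member, 13 were highest in line 3 (43.3%), with a median of 0.0296. For 79 probe sets at or above 12 that list several genes, of which at least 1 meets the rule, the median was 0.0332 and the values ran from -0.0664 to 0.266. Both groups of probe sets were read on the same arrays before quantile normalization, so they cannot show how the direction depends on the scaling.

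The members with unadjusted p under 0.05 in line 3 were Rps25 and Rpl7l1. Rps25, a small subunit protein needed for initiation at some viral internal entry sites, stood at 9.45 in the clone, 9.50 in line 1, 9.35 in line 2 and 9.85 in line 3, a difference of 0.42 ± 0.09 (SE; limma, unadjusted p = 0.00241, Benjamini-Hochberg adjusted p = 0.111). Rps25 rests on 1 single-gene probe set. It is also listed by probe sets that name several genes, which read those genes as well. No such probe set at or above level 12 differed by more than 0.266 in line 3. Rpl7l1 differed by -0.39 ± 0.09 (SE; limma, unadjusted p = 0.00432, Benjamini-Hochberg adjusted p = 0.148), and line 3 was the lowest array in all 3 of its probe sets, whose mean levels were 10.34, 10.31 and 8.41. Rpl39l differed by -0.45 ± 0.20 (SE), Rpl27a by -0.18 ± 0.14, Rpl14 by -0.12 ± 0.08, Rps4l by -0.11 ± 0.08 and Rpl13a by -0.04 ± 0.08. Line 3 was the lowest array in each of these 5. Without the clone the difference of Rpl39l was -0.30, and without line 1 that of Rpl27a was -0.08.

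Upward in line 3, Rpl37a differed by 0.17 ± 0.08 (SE), Rps27l by 0.16 ± 0.08 and Rpl3l by 0.15 ± 0.08. Rps19 differed by 0.13 ± 0.08, Rps6 by 0.11 ± 0.09 and Rpl7 by 0.11 ± 0.08. None of these was past the threshold. The second probe set of Rps6, with a mean level of 4.59, was lowest in line 3, with a difference of -0.14. Rpl37a stood at 13.59 in the clone and 13.52, 13.55 and 13.72 in lines 1, 2 and 3, and Rpl7 at 13.48, 13.49, 13.43 and 13.57. All 3 probe sets of Rpl37a, all 3 of Rpl7 and all 3 of Rps27l were highest in line 3; probe sets of a gene read the same RNA and are not replicates. Rpl7 and Rpl37a are the 2 members on chromosome 1. There 14 genes, these 2 included, lay at or above level 12 and had a median of 0.149 in line 3, 10 of them highest there. Of all 269 genes at or above level 12, 26.4% were highest in line 3, with a median of 0.0028. Over all 1057 measured genes of chromosome 1 the median was 0.0407. No member lies on chromosome 8, whose measured genes had a median of 0.18 in line 3. Beside Rps27l, 15 of 18 measured p53 targets had higher values in line 3, against 47.7% of all genes, and the list's median was 0.207, against -0.0059. Of these targets 2 passed the test (0.462% of all genes did), Pmaip1, which encodes Noxa, and Btg2, an antiproliferative gene (limma, Benjamini-Hochberg adjusted p of 0.0012 and 0.0412). Pmaip1 lies on chromosome 18, but Btg2 and Phlda3, another of these targets, lie on chromosome 1, so the 2 patterns share genes. Whether chromosome or p53 has a part in any of these differences was not tested. The p53 targets also had higher values in the lines than in the clone, with a median of 0.225 (-0.0031 over all genes), 15 of 18 higher (8909 of all 18193 genes) and 13 above the clone in all 3 lines (24.7% of all genes); none passed that test. Rps27l itself was below the clone in lines 1 and 2.

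**Figure D4:**
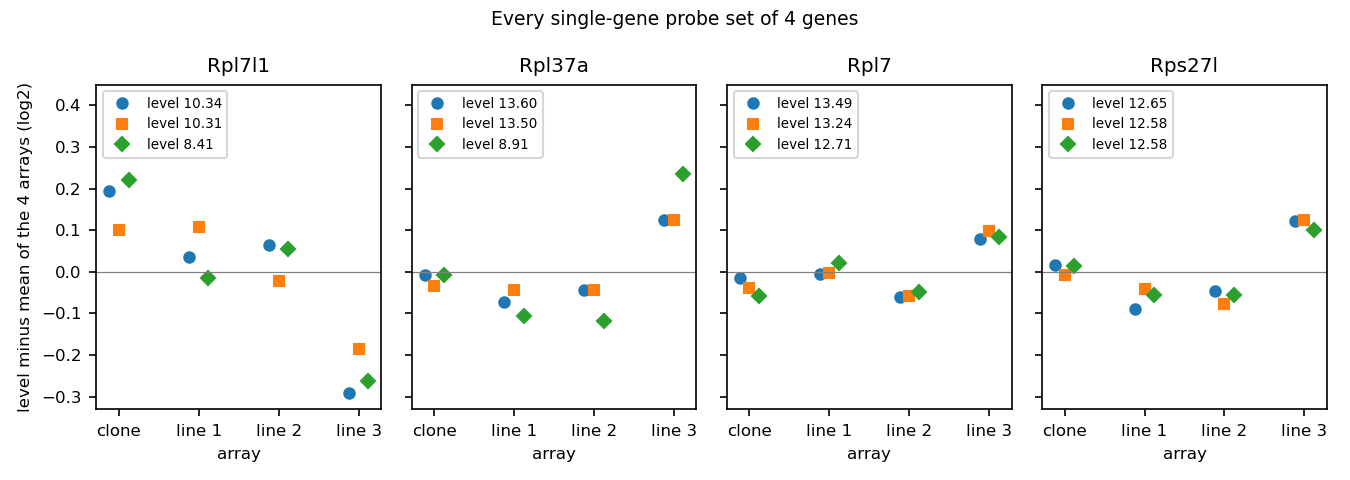
Level minus the mean of the 4 arrays (y axis, log2) on each array (x axis) for every single-gene probe set of Rpl7l1, Rpl37a, Rpl7 and Rps27l; markers tell the probe sets apart by their mean level. Line 3 is the lowest array in all 3 probe sets of Rpl7l1 and the highest in all 3 probe sets of each of the other genes.

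No member was called in line 1 or line 2. In line 1 limma called 0 members and 0.0% of all genes, and 1 member passed at an unadjusted p under 0.05 (2.04%, against 2.77%). That was Rpl27a, at 9.51 in the clone, 9.75 in line 1, 9.38 in line 2 and 9.37 in line 3, a difference of 0.33 ± 0.10 (SE; limma, unadjusted p = 0.015, Benjamini-Hochberg adjusted p = 0.998). Its second probe set, with a mean level of 5.76, stood at 5.87, 5.81, 5.72 and 5.64 and was not highest in line 1. Line 1 was the highest array for 11 members (22.4%, against 20.9% of all genes) and the lowest for 10 (20.4%, against 23.4%). Rpl39l differed there by -0.21 ± 0.27 (SE) and Rps27l by -0.12 ± 0.10. Without the clone that of Rpl39l was -0.02 and without line 3 it was -0.40, while that of Rps27l was -0.07 without line 3.

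In line 2, 0 members and 0.0% of all genes were called, and 0 members passed without adjustment (limma, against 2.33% of all genes). Line 2 was the lowest array for 16 members (32.7%, against 20.2% of all genes) and the highest for 4 (8.16%, against 23.6%), with a median log2 difference of -0.0157. After quantile normalization the counts were 14 and 8, and the median was -0.000797. Of the 18 large subunit members at or above level 12, 17 lay below the mean of the other arrays, and of the 19 small subunit members 11. Of the 232 genes at or above level 12 that are no members 105 did, and of all 18193 genes 8454. These counts were taken before quantile normalization, and the difference between subunits was not tested. Rps25 differed by -0.25 ± 0.17 (SE), Rpl27a by -0.16 ± 0.16 and Rpl22l1 by -0.10 ± 0.08. Without line 3 the difference of Rps25 was -0.13 and that of Rpl27a -0.24, and without line 1 that of Rpl27a was -0.05. Line 2 also had the largest Actb gap and the highest summed level of the fibroblast and feeder markers, given above, whose part in this was not tested. The 4 comparisons share arrays, so their values are not independent.

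Other genes of ribosome production and translation, in lists that were not tested as sets, gave no call between the lines and the clone. Of all genes 0.0% were called there, so the absence of calls is not particular to these lists. Of 57 ribosome biogenesis genes, which process ribosomal RNA and assemble the subunits, 0 were called, 7 lay above the clone in all 3 lines and 16 below, and the median log2 difference was -0.0184. Among them Imp4, a part of the small subunit processome, differed by -0.24 ± 0.08 (SE) and Nhp2, a box H/ACA snoRNP protein, by -0.24 ± 0.10. Upward, Riok2 differed by 0.22 ± 0.18 (SE) and Noc2l by 0.21 ± 0.08. Of 15 measured RNA polymerase I genes 0 were called, with 2 above and 5 below the clone in all 3 lines and a median of -0.0469. Of 32 translation factors 0 were called, with 10 above and 8 below and a median of -0.0028. Eif4a2, a helicase of cap-dependent initiation, differed by 0.25 ± 0.08 (SE), and Eif5 by -0.18 ± 0.09. Over all genes the shares above and below were 24.7% and 26.7%.

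In line 3, 1 gene of these 3 lists passed the test, against 0.462% of all genes. Taf1d, a subunit of the selectivity factor that brings RNA polymerase I to ribosomal DNA, stood at 9.68 in the clone, 9.82 and 9.78 in lines 1 and 2 and 9.02 in line 3, and fell by 0.75 on the log2 scale (SE 0.09; limma, Benjamini-Hochberg adjusted p = 0.0308). Polr1a, the largest subunit of the polymerase, differed by -0.36 ± 0.08 (SE) and did not pass (limma, Benjamini-Hochberg adjusted p = 0.132). Of the ribosome biogenesis genes line 3 was the highest array for 12 and the lowest for 21, with a median of -0.0361. Of the RNA polymerase I genes it was highest for 2 and lowest for 6, with a median of -0.0178, and of the translation factors highest for 10 and lowest for 8, with a median of 0.0097. Over all genes the shares were 25.7% highest and 28.8% lowest, with a median of -0.0059. Nip7 and Nob1, at 0.42 ± 0.10 and 0.35 ± 0.09 (SE), were the most raised biogenesis genes by value, and both lie on chromosome 8. The most lowered were Rrp12 and Riok2, at -0.27 ± 0.10 and -0.24 ± 0.16 (SE). None of these biogenesis genes passed the test.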

How the data were processed

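The authors deposited 1 table of log2 values for 45101 probe sets on 4 arrays; the normalization software is not given in the sources used here. On each array 2 raised to the deposited log2 value has a mean of 1, with ratios from 0.422 to 2.03, the form of a log intensity divided by its mean over the array. Each ratio was multiplied by an assumed mean log2 intensity of 7, so differences of deposited values were not taken as log2 fold changes, as the plan had assumed. A mean of 6 makes differences 14.3% smaller and a mean of 7.86, with the brightest probe set at 16, makes them 12.3% greater.

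Of the probe sets, 34945 name 1 gene and 932 several, and none was named from the latter. Each gene took its probe set with the highest mean. Comparisons used limma 3.58.1 under R 4.3.3, a linear model with eBayes moderation. It had 2 residual degrees of freedom and 3.57 prior ones for the lines against the clone, and 3.93, 3.54 and 5.05 prior ones for lines 1, 2 and 3. The fit was checked on simulated data with changes planted in line 3. These were larger than any difference of a member, so the check does not cover differences of the members' size. The lone array was assumed to vary like the others. Depth is not defined for arrays, and their number limits precision. Members and lists were chosen with earlier results of these data known. Named genes follow a rule on level, size of difference, range, paralogs, role and chromosome.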

Additional observations from a re-analysis of the deposited data

How the results depend on the processing

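No ribosomal protein gene was called by limma in any comparison under any alternative. In all 155 recalculations of 13 named differences of single members the direction was kept. Many of these could not turn it. Another assumed mean only multiplies every difference, and updated symbols, an intensity trend or leaving out dim genes left the differences unchanged. With the mean of all probe sets of a gene, the median member outshone 99.52% of genes, 26 members were among the 100 brightest and all 3 lines lay above the clone for 12 members. Without probe sets ending in _x_at, an alternative chosen after the data were seen, these were 99.77% and 28. Quantile normalization gives every array the same distribution, and changed the counts of members apart from the other arrays: 3 above and 15 below for the lines against the clone, 8 highest in line 2 with a median of -0.000797, and 11 highest and 19 lowest in line 3 with a median of -0.00041. On the deposited scale, whose unit is smaller, the medians were -0.002 for line 2 and 0.00267 for line 3. Leaving out 1 array in turn, members above the clone in every remaining line numbered 8 to 13 and below it 8 to 18; fewer arrays make such counts larger by construction. In line 1 they were 12 to 16 highest and 15 to 16 lowest, with medians from -0.0189 to 0.00473. In line 2 they were 7 to 10 highest and 19 to 22 lowest, and in line 3 23 to 24 highest and 8 to 11 lowest. For the counts under these alternatives the shares of all genes are not given. The counts thus do not tell members from other genes. Differences of single members of at least 0.1 that moved by over 1.5 times without 1 array are given beside their values; of these the lines' difference of Rps25, not among the 13, turned to -0.03 without line 3. No paired analysis was possible because the groups share only the number 1. The number of arrays, and for dim members the choice of probe set, limit these results.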
